A study of Mus musculus with 2 samples.

Results

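The let-7 axis genes described here were Trim71, Lin28a, Lin28b, Igf2bp1, Igf2bp2, Igf2bp3, Hmga2, Arid3a, Arid3b and Nr6a1. They are the rows of both count tables that carry these symbols, 10 of 22609 genes, and 9 of the 10 had a count in at least 1 library. The list holds known let-7 targets and let-7 regulators, and it was chosen by gene function with the mimic to scramble ratios in these tables already known. Trim71 was selected on its large ratio of counts in the same 2 libraries. All ratios of these genes are therefore given as descriptions. TM4 is an established Sertoli cell line from the testis of immature mice. They received miR-471-5p mimic or scramble by transfection, and 48 h later RNA bound to Ago2, the protein that loads miRNAs and holds them on their target mRNAs, was immunoprecipitated with an Ago2 antibody and sequenced. Both cultures were grown in DMEM with 10% FBS and 5% CO2, with no other treatment named in the labels. The question of the experiment was which mRNAs gain association with Ago2 when miR-471-5p is overexpressed.

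Each condition had 1 library (n = 1), so no difference below has a replicate check, no test was possible and no p-value is given. The gene counts summed to 18628310 with mimic and to 18717225 with scramble. For a count of 0, a floor of 3 counts was taken as the upper limit, or 0.161 CPM (the count scaled to the size of the library) in either library. Ratios are mimic over scramble, on the log2 scale, with an exact 95% Clopper-Pearson interval that covers counting error only. RNA from before the pull-down was not analysed here, so a change in the amount of an mRNA and a change in its binding to Ago2 cannot be told apart, and neither can fewer cells that express a gene and less RNA per cell. Of the Sertoli cell markers, Sox9, a transcription factor of the lineage, had 1228 counts with mimic and 1070 with scramble. Amh, the anti-Müllerian hormone, had 5 in each, and Fshr, the receptor for follicle-stimulating hormone, had 0 in both. Among the 12 Sertoli markers in the table, 6 had at least 20 counts, of which 3 were higher with mimic and 3 lower. Wt1 (73 and 35 counts) was at least 2-fold higher with mimic, as were 3.96% of all genes, and Kitl (12245 and 16163) and Inhbb (314 and 380) were lower, with intervals below 0.

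let-7 is a family of miRNAs that accumulates as cells differentiate. LIN28A and LIN28B bind let-7 precursors and keep them from being processed, while let-7 in turn represses the Lin28 mRNAs, so that the pathway forms a double-negative loop. Trim71, the mammalian form of lin-41 and a classic let-7 target, encodes an RNA-binding ubiquitin ligase of early embryos and stem cells. Hmga2, Igf2bp1, Igf2bp2, Igf2bp3, Arid3a, Arid3b and Nr6a1 are further mRNAs with let-7 sites, several of them oncofetal genes that are high in embryonic tissue and in tumours.

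The mature miRNAs are shown because their seeds, bases 2 to 8 from the 5′ end and printed in capitals, decide which mRNA letters were searched. Sequences are from RefSeq. Of 11 let-7 family names found, 10 share the seed of let-7a and 1, let-7j, has another. The let-7a-5p sequence of the Mirlet7a-1 locus lies on GRCm38 at chr13:48538239-48538260 (minus strand). The miR-471-5p sequence lies at chrX:66792634-66792655 (minus strand).
mmu-let-7a-5p: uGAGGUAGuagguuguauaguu
mmu-let-7d-5p: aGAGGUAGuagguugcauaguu
mmu-let-7g-5p: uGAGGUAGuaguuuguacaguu
mmu-miR-98-5p: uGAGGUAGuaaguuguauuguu
mmu-miR-471-5p: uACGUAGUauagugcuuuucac
The seeds of the let-7 family and of miR-471-5p differ. The mRNA letters that pair with them, the 7mer-m8 matches, are CTACCTC for let-7 and ACTACGT for miR-471-5p, and a match followed by A is an 8mer. Both were searched on the sense strand of the longest annotated 3′-UTR of each gene (GENCODE M21, GRCm38), and the match of the one holds no match of the other.

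All 10 genes had at least 1 let-7 match, 31 in all, of which 17 were 8mers and 14 were 7mer-m8 matches without the final A. Among all genes with at least 20 counts and an annotated 3′-UTR, 10.8% held a let-7 match. The targets were listed for their let-7 sites, so the presence of matches is part of how they were chosen. None of the 10 held a 7mer-m8 match for miR-471-5p, which 1.56% of those genes held. Their coding regions held 5 further let-7 matches in 4 genes (Trim71, Lin28b, Arid3a and Arid3b) and 0 for miR-471-5p. Windows of 25 nucleotides around 14 of the 3′-UTR matches are printed, to show all 4 sites of Trim71, the closest pair of sites in Nr6a1 and the first site of each of the others. Capitals mark the let-7 match, with the A of an 8mer. Each window is the mRNA strand in the 3′-UTR, with its GRCm38 position and strand, and the number after the symbol is the distance of the match from the stop codon in nucleotides.
Trim71 166 (chr9:114512470-114512494, minus strand): aacattgcctaagtcCTACCTCAgc
Trim71 262 (chr9:114512374-114512398, minus strand): agtgataatttctatCTACCTCAac
Trim71 3591 (chr9:114509045-114509069, minus strand): tttagtatggattttCTACCTCAat
Trim71 3617 (chr9:114509019-114509043, minus strand): ttggcaaaaagttgtCTACCTCAcg
Lin28a 909 (chr4:134005187-134005211, minus strand): gcacagcctgttgaaCTACCTCAtt
Lin28b 36 (chr10:45381020-45381044, minus strand): acccgggcgggaagtCTACCTCAtg
Igf2bp1 1715 (chr11:95961776-95961800, minus strand): gctgtgcgaagtaaaCTACCTCAag
Igf2bp2 1313 (chr16:22059471-22059495, minus strand): acacacaaataaaagCTACCTCAgg
Igf2bp3 548 (chr6:49086785-49086809, minus strand): tgcatttttactcaaCTACCTCAgg
Hmga2 58 (chr10:120364222-120364246, minus strand): gccgacattcaatttCTACCTCAgc
Arid3a 1974 (chr10:79953895-79953919, plus strand): aaggcaagtttctttCTACCTCAgg
Arid3b 2148 (chr9:57790359-57790383, minus strand): tatttcaataaagctCTACCTCttc
Nr6a1 4135 (chr2:38723683-38723707, minus strand): aagtgcatcatgaacCTACCTCAgg
Nr6a1 4145 (chr2:38723673-38723697, minus strand): tgaacctacctcaggCTACCTCcca

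The genes differed in how many let-7 matches they held and where. Nr6a1 had 8, the most of any gene with at least 20 counts, in a 3′-UTR of 4457 nucleotides. Trim71, Lin28b, Igf2bp1 and Hmga2 had 4 each. Lin28a and Arid3a had 2, and Igf2bp2, Igf2bp3 and Arid3b had 1. The matches of Trim71 lay in 2 pairs. The first pair was 96 nucleotides apart near the stop codon, the other began 3329 nucleotides further on and was 26 nucleotides apart, and all 4 were 8mers. Those of Lin28b were spread from nucleotide 36 to nucleotide 3998 of 4445, and 1 of the 4 was an 8mer. The single match of Arid3b ended 6 nucleotides before the end of its 3′-UTR, and Arid3b was the only gene of the 10 without an 8mer.

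**Figure D1:**
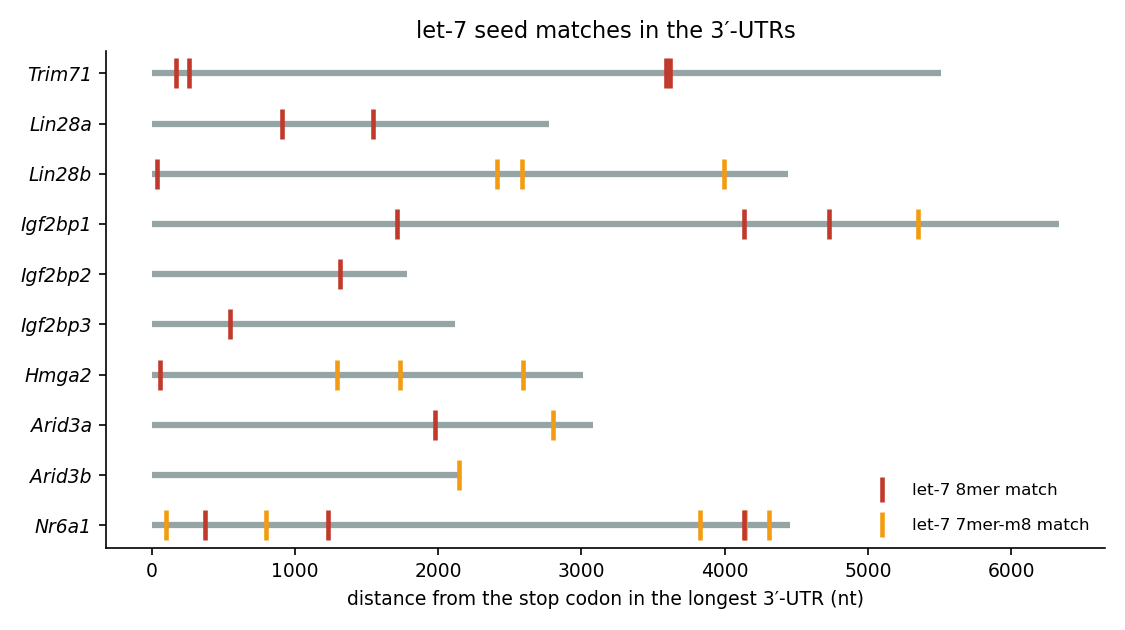
Positions of let-7 seed matches along the longest annotated 3′-UTR of each gene, in nucleotides from the stop codon (GENCODE M21). Grey bars are the 3′-UTRs, drawn to scale, red ticks are 8mer matches and orange ticks are 7mer-m8 matches. The 31 matches range from 1 in Igf2bp2, Igf2bp3 and Arid3b to 8 in Nr6a1, whose matches at 4135 and 4145 merge into 1 tick at this scale.

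The genes fell into a scarce set and a set with higher levels that ran from the middle of the tested genes to near the top. Compared per kilobase of the longest annotated transcript, Trim71, Lin28a and Lin28b were under 1 CPM per kb in both libraries, whereas the 7 others were between 7.5 CPM per kb (Arid3b, mimic) and 208 CPM per kb (Hmga2, mimic). In the scramble library the level was 147 CPM per kb for Hmga2, 130 for Igf2bp2, 72.9 for Igf2bp3, 58.0 for Arid3a, 44.3 for Igf2bp1, 13.2 for Nr6a1 and 11.0 for Arid3b. Hmga2 stood above 97.9% of tested genes on this scale and Igf2bp2 above 97.4%, while Lin28b stood above 2.16% and Trim71 above 1.87%. Nr6a1 and Arid3b were near the middle, above 56.9% and 52.0% of tested genes with scramble and 59.7% and 42.0% with mimic. Neighbours in the scramble order had separate 95% Poisson intervals except Lin28b (0.188 CPM per kb) and Trim71 (0.172). In the mimic library Arid3a (73.9) stood above Igf2bp3 (57.6), the reverse of their order in the scramble library, and Trim71 (0.0172) could not be separated from Lin28a, which had 0 counts. Pluripotent and germ cell markers were also scarce, with Ddx4 at 46 counts with mimic and 74 with scramble, Sycp3 at 58 and 48, and 4 of 10 markers, Pou5f1 and Sox2 among them, at 0 in both. Of the Sycp3 transcript, 50.4% of windows of 50 bases also occur in transcripts of other genes. The summed level of the 10 markers was 5.73 CPM with mimic and 6.75 with scramble, and its part in the low counts of Trim71 and Lin28b was not tested.

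**Figure D2:**
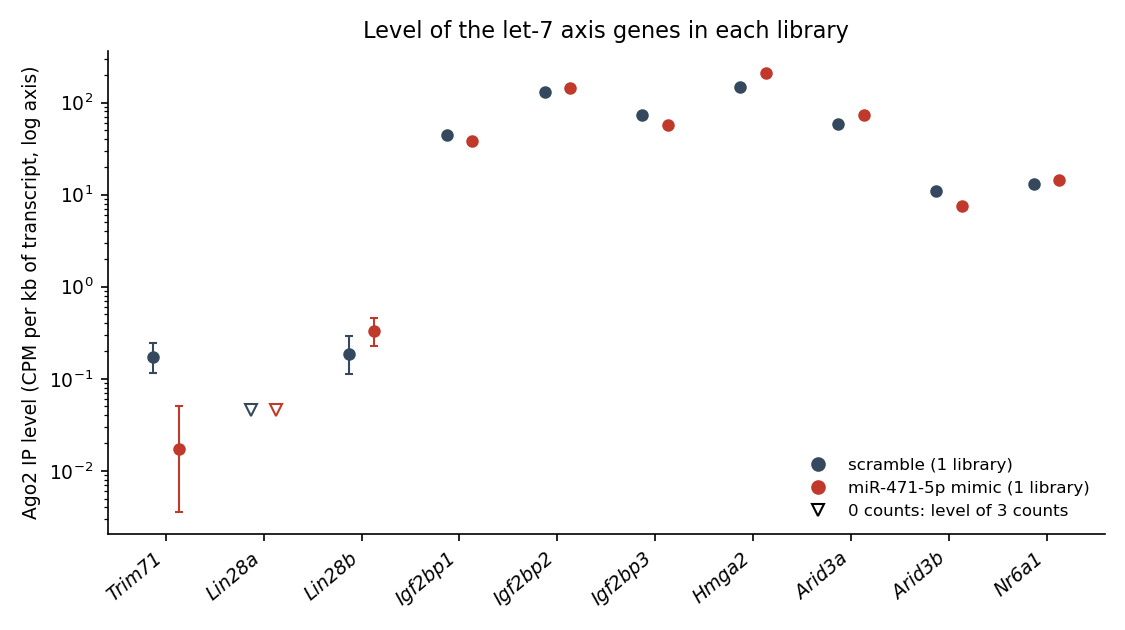
Ago2 IP level of each gene in the scramble library (dark) and the miR-471-5p mimic library (red), in CPM per kilobase of the longest annotated transcript on a log axis. Points are single libraries, bars are exact 95% Poisson intervals (counting error only), and open triangles mark the level of 3 counts for Lin28a, which had 0 counts. Hmga2 and Igf2bp2 are at the top in both libraries and Trim71, Lin28a and Lin28b lie far below the other 7.

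Between the libraries, 1 of the 9 genes with at least 20 counts, Trim71, was at least 2-fold lower in the mimic library and 0 were at least 2-fold higher. Of all 12186 genes that reached 20 counts when both libraries were added, called tested genes here, 3.08% were at least 2-fold lower and 3.96% at least 2-fold higher. Of the 9, 5 were higher in the mimic library by any amount and 4 were lower, against 49.9% and 50.1% of all genes. The interval lay wholly above 0 in 4 of them and wholly below 0 in 4, against 31.5% and 32.5%. Counted in either direction, 1 of the 9 was past 2-fold, against 7.04% of all genes. At a fold of 1.5, 1 was higher (Lin28b) and 1 was lower (Trim71), against 11.7% and 9.11%. The interval was wholly past 2-fold higher in 0 and wholly past 2-fold lower in 1 (Trim71), against 1.76% and 1.22%. Trim71 was selected on its ratio, so its place in these counts is part of how the list was chosen. Their median log2 ratio was 0.14, and that of all genes was -0.0006. Apart from Trim71, the 8 others lay between the 5th and 95th percentiles of all genes, at -0.80 and 0.91.

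Among the regulators, Trim71 (chr9:114507133-114564369, minus strand, GRCm38) had 3 counts with mimic and 30 with scramble, or 0.161 and 1.61 CPM. The scramble library was 10.0-fold higher, with an interval from 3.11 to 51.2, and the log2 ratio was -3.32 (-5.68 to -1.64). The interval takes no account of the selection of Trim71 on this ratio. No tested gene had a lower ratio, and 1 other, Gpr63, with 2 and 20 counts, had the same. The whole difference rests on 33 reads over a transcript of 9332 nucleotides, and the mimic count is at the floor of 3. Genes with 0 counts in the mimic library entered this ranking at that floor, so those with under 30 scramble counts could not rank below Trim71. Over the 2 libraries the genes whose levels, as log2(CPM + 0.5), were nearest to those of Trim71 were Pdgfd (4 and 26 counts), Nhs (5 and 28) and Hist2h2bb (5 and 27), and no other gene lay within a distance of 0.25.

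Lin28b (chr10:45376620-45486395, minus strand), whose protein binds let-7 precursors and blocks their maturation, had 33 counts with mimic and 19 with scramble. This was 1.77 against 1.02 CPM, a log2 ratio of 0.80 with an interval from -0.06 to 1.69 that includes 0, so a difference could not be told from counting error. Like Trim71, Lin28b had 4 let-7 matches in a long 3′-UTR and a low level in the scramble library. Lin28b had many neighbours in level, with 84 genes within the same distance of 0.25, the nearest being Fbxo24 and Lenep (34 and 19 counts each) and B330016D10Rik (32 and 19). Lin28a, the paralog of Lin28b known from embryonic stem cells and early germ cells, had 0 counts in both libraries. Its level was thus under the floor of 3 counts, or 0.161 CPM, in each, and no ratio can be given.

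The 3 oncofetal RNA-binding genes were abundant and close to equal in the libraries. Igf2bp1, Igf2bp2 and Igf2bp3 encode related proteins that bind and stabilise mRNAs, Igf2 and Myc among them. Igf2bp1 had 6014 counts with mimic and 6928 with scramble, a log2 ratio of -0.20 (-0.25 to -0.15). Igf2bp2 had 13327 and 12055, a log2 ratio of 0.14 (0.11 to 0.18). Igf2bp3 had 4675 and 5913, a log2 ratio of -0.34 (-0.40 to -0.28), so that Igf2bp2 was on the other side of 0 from its paralogs. Each interval left out 0, but a change of this size between libraries has no replicate spread to be set against. Of the Igf2bp3 transcript, 34.5% of windows of 50 bases also occur in transcripts of other genes, most in Malsu1. Both strands were searched, and genes that overlap at the same place were not set apart. How reads from these windows were counted is not known. For Igf2bp1 the share was 0.516% and for Igf2bp2 it was 0.

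The chromatin and transcription genes spread more widely. Hmga2, a DNA-bending chromatin protein of embryonic and tumour cells, had 14800 counts with mimic and 10443 with scramble, which is 1.42-fold higher with mimic (1.38 to 1.45), a log2 ratio of 0.50. A lower ratio was found in 85.2% of all tested genes. Arid3a, an AT-rich DNA-binding factor, was also higher with mimic, at 7397 against 5804 counts and a log2 ratio of 0.35 (0.30 to 0.40). Its paralog Arid3b was lower, at 584 against 860 counts and a log2 ratio of -0.56 (-0.71 to -0.41), below which 9.83% of all genes lay. Arid3a and Arid3b thus lay on opposite sides of 0 with intervals that did not overlap. Nr6a1, or germ cell nuclear factor, an orphan nuclear receptor, had 1727 and 1560 counts and a log2 ratio of 0.15 (0.05 to 0.25), so the gene with the most let-7 matches was close to the median of all genes. Summed over these 4 genes, 24508 counts were found with mimic and 18667 with scramble, most of both from Hmga2.

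**Figure D3:**
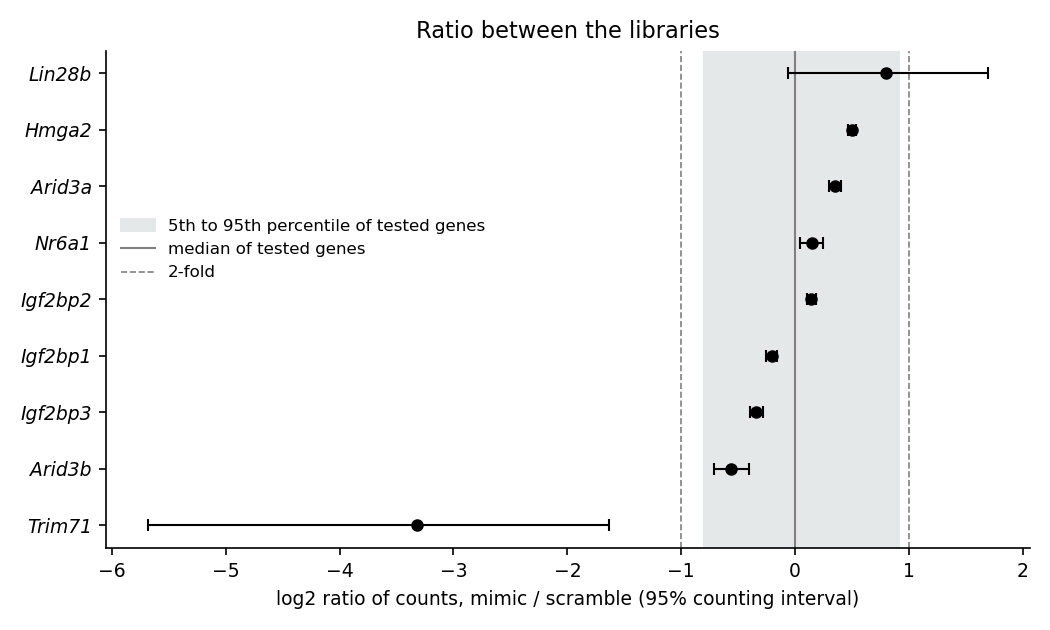
Log2 ratio of mimic over scramble counts for the 9 genes with counts, ordered by ratio, with exact 95% Clopper-Pearson intervals (counting error only, 1 library per condition). The grey band spans the 5th to 95th percentiles of 12186 tested genes, the solid line is their median and dashed lines mark 2-fold. Trim71 lies at -3.32 outside the band, and the other 8 lie inside it.

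The let-7 matches were then set beside the ratios, as a description, since the ratios were known when the genes were chosen. The genes with 4 matches held both ends of the range, Trim71 at -3.32 and Lin28b at 0.80. Among all genes, those with a let-7 match had a median log2 ratio of -0.07 (1267 genes) and those with none of 0.01 (10479 genes). The median was -0.06 with 1 match (1107 genes), -0.10 with 2 (136 genes) and -0.22 with 3 or more (24 genes, of which 5 were the genes described here). Of the 24, 5 were at least 2-fold lower in the mimic library, or 20.8%, and 1 of these 5 was Trim71, selected on this ratio. The share was 2.79% among genes with no match, and 9.02% among all genes with a 3′-UTR of at least 3735 nucleotides.

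Genes with more matches have longer 3′-UTRs, and the ratio itself moved with 3′-UTR length. The tested genes were split by 3′-UTR length into 10 classes of near equal size. From the class with the shortest 3′-UTRs to the class with the longest, the median log2 ratio went from 0.27 to -0.18, and the 9 let-7 axis genes all lay in the 4 longest classes. Genes with a let-7 match had a higher median than genes without in 5 classes and a lower one in 5, with differences from -0.17 to 0.12. Set against the median of their length class, genes with no match had a median of -0.0011 and those with 1 match of 0.01. It was 0.06 for genes with 2 matches and -0.04 for those with 3 or more. The part of 3′-UTR length in the difference between match classes was not tested. Set against the median of its own length class, the log2 ratio was -3.14 for Trim71, 0.98 for Lin28b, 0.63 for Hmga2, 0.48 for Arid3a, 0.33 for Nr6a1, 0.20 for Igf2bp2, -0.02 for Igf2bp1, -0.22 for Igf2bp3 and -0.44 for Arid3b. All 9 kept the sign of their ratio, and Igf2bp1 came closest to the median of its class. The median of the 9 was 0.20 on this scale, against 0.14 without it.

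**Figure D4:**
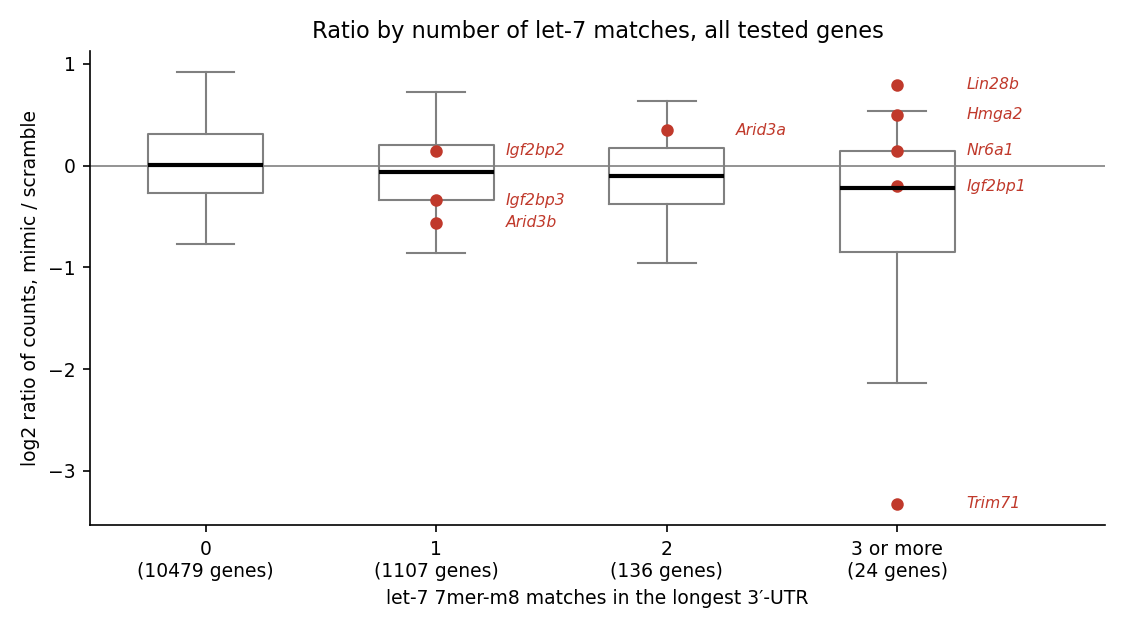
Log2 ratio of mimic over scramble counts of all tested genes with a 3′-UTR, by number of let-7 7mer-m8 matches. Boxes are quartiles with the median as a black line, whiskers reach the 5th and 95th percentiles, and red points are the let-7 axis genes. Medians go from 0.01 without a match to -0.22 with 3 or more, and the points at 3 or more range from -3.32 to 0.80. Set against genes of the same 3′-UTR length class, these medians are -0.0011 and -0.04.

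In all, 11 tested genes had 4 or more let-7 matches, and 5 of them were Nr6a1, Hmga2, Igf2bp1, Lin28b and Trim71. Of the other 6, Mcf2l and Nudt12 had 7 matches, with 34 and 43 counts and 25 and 45 counts with mimic and with scramble. Trim6 had 6 matches and 182 and 165 counts. Hic2, Zbtb37 and D10Wsu102e had 4, and of these Zbtb37, at 84 and 204 counts, was more than 2-fold lower with mimic. The annotated 3′-UTRs of Zbtb37 and D10Wsu102e were very long, at 16999 and 122583 nucleotides. The median over all tested genes with a 3′-UTR was 1205. These 6 were picked out after their values had been seen, and they spread to both sides of 0 as the named genes did.

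Genes for the proteins that make, modify and destroy let-7 precursors were next compared. All 17 genes of this group had at least 20 counts. Their median log2 ratio was -0.22, with 5 higher and 12 lower by any amount, 0 at least 2-fold higher and 1 at least 2-fold lower, against 49.9%, 50.1%, 3.96% and 3.08% of all tested genes. The median was -0.10 when set against the 3′-UTR length classes. The 1 past 2-fold was Zcchc6 (TUT7), with 526 counts with mimic and 1084 with scramble, a log2 ratio of -1.04 (-1.20 to -0.89). Next was its paralog Zcchc11 (TUT4), with 1648 and 2808 counts and a log2 ratio of -0.77 (-0.86 to -0.68). These are the enzymes that add uridines to let-7 precursors. Dis3l2, the nuclease that degrades uridylated precursors, had 367 and 398 counts, a log2 ratio of -0.12 whose interval (-0.33 to 0.09) includes 0. The processing enzymes Drosha (3095 and 3670 counts) and Dicer1 (5886 and 7146 counts) had log2 ratios of -0.25 and -0.28. Of the Zcchc6 transcript, 25.3% of 50-base windows also occur in other genes. None of the 17 held a miR-471-5p match, and the 4 with a let-7 match had a median of -0.01, against -0.25 for the 13 without.

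The hairpin genes of let-7 gave almost no reads. Of 12 let-7 family loci in the table, 9 had 0 counts in both libraries. Mirlet7a-1, Mirlet7b and Mirlet7c-2 had 1 count each with mimic and 0 with scramble, below the floor of 3. The library kit is made for longer RNA, and counts on these rows do not measure mature let-7.

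Of 34 other described let-7 targets, 33 had at least 20 counts, with a median log2 ratio of -0.14, 12 higher and 21 lower by any amount, 0 at least 2-fold higher and 4 at least 2-fold lower. Of all tested genes 49.9% were higher and 50.1% lower, 3.96% at least 2-fold higher and 3.08% at least 2-fold lower. Set against genes of the same 3′-UTR length class, the median was -0.03. The 4 past 2-fold were Cdk6, Irs2, Plag1 and Thbs1. Cdk6, a kinase of the G1 phase, had 82 counts with mimic and 352 with scramble, a log2 ratio of -2.10 (-2.47 to -1.75). Irs2, an adaptor of insulin signalling, had 166 and 503 counts and a log2 ratio of -1.60 (-1.86 to -1.34). Plag1, a zinc-finger transcription factor, had 257 and 549 counts and a log2 ratio of -1.10, and it was the only gene of the group with a miR-471-5p match. Thbs1, a secreted matrix glycoprotein, had 6133 and 12321 counts and a log2 ratio of -1.01. Of these 4, only Irs2 held a let-7 7mer-m8 match in the mouse 3′-UTR that was searched.

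The cyclins Ccnd1 and Ccnd2 were also lower, with 16406 against 26773 counts and 6710 against 10706 counts, log2 ratios of -0.71 and -0.67. Of the Ccnd1 transcript, 27.2% of 50-base windows also occur in other genes, and for Ccnd2 the share was 5.17%. The growth factor receptor Igf1r was at -0.32. Nras and Hras lay at 0 within counting error, with Nras at 0.03 (-0.01 to 0.08) and Hras, listed as Hras1, at 0.08 (-0.13 to 0.28). The phosphatase gene Cdc25a was at 0.04 (-0.03 to 0.10). The transcription factor Myc was at 0.11 and the TGF-β receptor Tgfbr1 at 0.45, with intervals above 0. Hmga1 had 11 and 12 counts, but 69.1% of its 50-base windows occur in other genes, most in Hmga1b, so its level is uncertain. Within the group, the 23 genes with a let-7 match had a median of -0.11 and the 10 without had a median of -0.63, with 1 and 3 genes at least 2-fold lower.

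**Figure D5:**
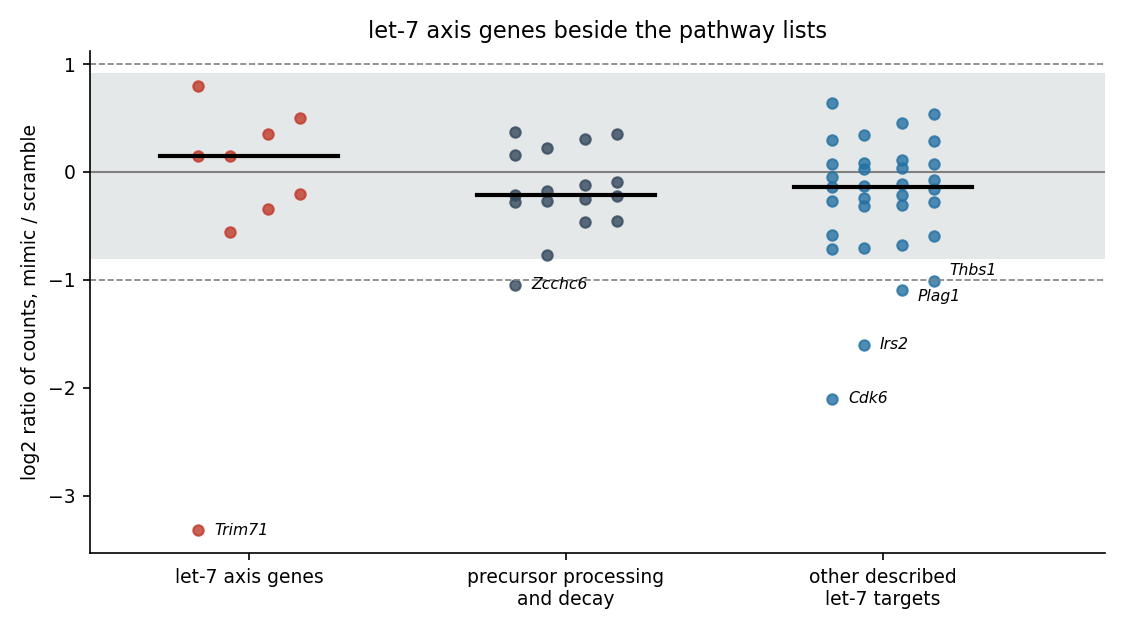
Log2 ratio of mimic over scramble counts for the 9 let-7 axis genes, 17 genes of let-7 precursor processing and decay, and 33 other described let-7 targets. Each point is a gene with at least 20 counts, black bars are medians (0.14, -0.22 and -0.14), the grey band spans the 5th to 95th percentiles of all tested genes and dashed lines mark 2-fold. The labelled genes past 2-fold are all lower in the mimic library.

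Markers of other testis cells were measured beside these genes. Of the Leydig cell markers the most counts were in Star (60 with mimic and 69 with scramble) and Cyp17a1 (11 and 6), and the 5 markers summed to 4.5 and 4.71 CPM. Of the macrophage markers the most were in Csf1r (18 and 25) and Cd68 (8 and 9), with Ptprc at 0 in both and a sum of 1.55 and 1.93 CPM. Of the peritubular myoid markers, Acta2, the smooth muscle actin, had 73076 and 101778 counts, while Cnn1 had 11 and 17, so the sum of 3910 and 5450 CPM was nearly all Acta2. Their part in the values of the let-7 axis genes was not tested.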

How the data were processed

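Raw read counts, without normalization, were deposited for each gene, in 1 table per Ago2 IP library. The submitters' processing notes name CASAVA 1.8.2, TopHat2 2.0.8b, HTSeq and the mm9 build. The annotation used for counting and the strand setting are not given in the sources used here. Summary rows that name no gene were left out of library sizes. They held 47.3% of entries with mimic and 44.1% with scramble, most of them entries for reads aligned to more than 1 place.

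Library sizes were scaled by TMM (edgeR 4.0.16, R 4.3.3). Log2 ratios used no prior count, and a count of 0 beside more than 3 counts was set to 3. Genes whose counts in both libraries added up to 20 or more were called tested. With 1 library per condition no quasi-likelihood model could be fitted in edgeR. The ratio and interval code was tested on simulated data. Of the table symbols, 20284 matched GENCODE M21 (GRCm38) by symbol and 1893 by a RefSeq synonym, and 432 did not match. These positions were not transferred from mm9.

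The genes and gene lists were chosen with earlier results of these data known. Named genes were all 10 members, 12 preset let-7 targets, 5 preset processing genes, pathway genes past 2-fold, let-7 loci with counts, Sox9, Amh, the most counted 2 of each other marker list, and the 3 nearest in level to Trim71 and to Lin28b. Genes past these rules were named after their values were seen. Some genes that these rules name are not reported here. Alternatives were DESeq2 1.42.0 size factors, total counts, other count minimums and folds, intervals past 2-fold, other match lengths and adjustment for 3′-UTR length.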

Additional observations from a re-analysis of the deposited data

Results flagged for a closer look

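Entries for reads that aligned to more than 1 place made up 39.8% of all entries with mimic and 35.6% with scramble. Whether such a read gave 1 entry or more is not given in the sources used here, so these are not shares of reads. These entries are in no gene count and were picked out as a signal outside the main measurement. Which genes they came from cannot be read from the tables. The transcripts of Igf2bp3, Arid3b and Hmga2 share 34.5%, 7.57% and 4.36% of their 50-base windows with other genes. Both strands were searched and genes that overlap at the same place were not set apart. These shares therefore do not measure reads aligned to more than 1 place.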

How the results depend on the processing

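Every log2 ratio shifted by 0.0006 when DESeq2 size factors were used and by 0.0075 with total counts, and no count of genes past 2-fold moved. Trim71 stayed the only gene at least 2-fold lower under the scalings, with a fold of 1.5, with its counting interval wholly past 2-fold, with no count filter and after adjustment for 3′-UTR length. Trim71 was selected on this ratio in the same libraries, so its place under these settings is no independent check. With at least 200 counts there were 0, since Trim71 has 33. With a fold of 1.5 there was 1 gene higher, Lin28b. Set against the median of its 3′-UTR length class, the log2 ratio was -0.0223 for Igf2bp1, 0.20 for Igf2bp2, -0.2207 for Igf2bp3, 0.6326 for Hmga2, 0.4794 for Arid3a and 0.3285 for Nr6a1. The median became 0.1992 for the 9 let-7 axis genes with counts, -0.098 for the processing genes and -0.0309 for the other let-7 targets. Over 15 results and 63 alternatives, 53 values stayed within their limit and 10 moved. The median of genes with a let-7 match went from -0.071 to 0.0143 with the length adjustment, the 1 change of sign among 49 log2 values. No paired analysis was possible because each condition had 1 library, and no library could be left out for the same reason. Depth limits Trim71, Lin28a and Lin28b, which had at most 33 counts in a library.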
